A study of Mus musculus with 4 samples.

Results

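Mitosis and spindle genes are the genes a cell uses to condense, attach and separate its chromosomes and then to divide. Of 47 listed mouse symbols, 46 had a probe set of their own among the 18193 genes of the array, and each was read at its brightest probe set, meaning the probe set whose log2 signal, averaged over the 4 arrays, was highest. The symbol Ccnb1, a mitotic cyclin, had no match and was not analysed here. The list was drawn up by function, although with earlier results of these data known. RNA was measured on 4 Affymetrix mouse arrays, 1 array and 1 biological sample for each of 4 conditions, so no value has an error and no test was possible. In what follows, higher and lower describe these 4 arrays.

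The cells were bone marrow-derived dendritic cells (BMDC) of male C57BL/6 mice aged 6 to 8 weeks. In every condition, control included, the marrow was grown for 7 days with 500 U/ml of GM-CSF, a cytokine that expands myeloid progenitors and drives them towards dendritic cells. All samples were also sorted on the surface protein CD80 before RNA was taken. The control BMDC met no tumour cells. In the live coculture 1 tumour cell was present for every 5 BMDC, the tumour cells being 1D8, which derives from mouse ovarian surface epithelium. The irradiated coculture had the same ratio, with 1D8 cells given 50 Gy beforehand, as irradiation is used to stop cells from dividing. The conditioned medium sample had 1D8 supernatant at 25% of its volume and no tumour cells. An array of 1D8 cells alone was not analysed here. How long each exposure lasted is not given in the sources used here. Cultures of this kind hold dividing progenitors beside mature cells, and in such RNA a larger share of dividing cells and more RNA of a gene per cell cannot be told apart.

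Most mitosis genes are transcribed in waves. In resting cells the DREAM complex keeps them off, and in dividing cells MYBL2 and FOXM1 turn them on late in the cell cycle. These factors act at a promoter element called the cell cycle genes homology region (CHR), often with CCAAT boxes bound by NF-Y nearby. The proteins then act in order. Cyclin-dependent kinase 1 starts mitosis, condensin packs the chromosomes, kinetochores tie them to the spindle, the checkpoint waits for every attachment, and the central spindle guides the final split of the cell.

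Of the 46 genes, 38 had a start-site window in the RefSeq promoter sequences of GRCm38.p6, in 40 windows of 300 bases (250 before the start and 50 from it on). The letters TTTGAA, a CHR form, stood on either strand in 30 of the 40 windows (75%), against 17.9% of all 32851 windows and 16.0% of the 21262 windows of protein-coding genes. CCAAT stood in 30 of 40 (75%), against 37.4% of all windows. Both stood in 27 of 40 (67.5%), against 6.95% of all windows, and in 1 of the 40 a match to the first shared a base with a match to the second. A TTTGAA match began within 50 bases of the start in 26 of 40 windows (65.0%), against 4.94%. A match is a run of letters and not a measured site. Below are 6 windows, read 5′ to 3′ along the gene, with TTTGAA and CCAAT and their reverse complements TTCAAA and ATTGG in capitals. They were picked for the spread of their array values: Kif11 and Ube2c were at least 2-fold higher than the control in the live coculture and in conditioned medium, Top2a and Nusap1 passed 2-fold in conditioned medium alone, Cdc20 was nearly level in conditioned medium, and Bub3 was lower in all 3 treated samples. The windows are Kif11 (chr19:37376132-37376431, plus strand), Ube2c (chr2:164769679-164769978, plus strand), Top2a (chr11:99024140-99024439, minus strand), Nusap1 (chr2:119618048-119618347, plus strand), Cdc20 (chr4:118437294-118437593, minus strand) and the first of 2 windows of Bub3 (chr7:131560120-131560419, plus strand).
Kif11: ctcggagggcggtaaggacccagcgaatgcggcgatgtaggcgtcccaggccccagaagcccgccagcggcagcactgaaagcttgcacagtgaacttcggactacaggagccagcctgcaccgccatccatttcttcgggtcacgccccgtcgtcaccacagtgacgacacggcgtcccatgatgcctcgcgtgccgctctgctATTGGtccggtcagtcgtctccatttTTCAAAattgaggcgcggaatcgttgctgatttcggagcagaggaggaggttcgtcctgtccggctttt
Ube2c: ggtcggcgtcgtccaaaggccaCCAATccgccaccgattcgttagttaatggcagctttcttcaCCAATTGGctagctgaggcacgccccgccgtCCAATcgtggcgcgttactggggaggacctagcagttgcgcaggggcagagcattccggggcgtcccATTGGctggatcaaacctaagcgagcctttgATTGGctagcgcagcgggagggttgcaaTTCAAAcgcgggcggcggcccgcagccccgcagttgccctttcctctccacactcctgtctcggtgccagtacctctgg
Top2a: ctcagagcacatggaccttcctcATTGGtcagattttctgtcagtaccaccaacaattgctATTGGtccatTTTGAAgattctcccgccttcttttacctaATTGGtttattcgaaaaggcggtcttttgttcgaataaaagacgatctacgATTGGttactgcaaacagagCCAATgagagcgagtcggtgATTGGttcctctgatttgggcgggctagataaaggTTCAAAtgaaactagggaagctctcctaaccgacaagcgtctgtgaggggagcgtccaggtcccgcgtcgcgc
Nusap1: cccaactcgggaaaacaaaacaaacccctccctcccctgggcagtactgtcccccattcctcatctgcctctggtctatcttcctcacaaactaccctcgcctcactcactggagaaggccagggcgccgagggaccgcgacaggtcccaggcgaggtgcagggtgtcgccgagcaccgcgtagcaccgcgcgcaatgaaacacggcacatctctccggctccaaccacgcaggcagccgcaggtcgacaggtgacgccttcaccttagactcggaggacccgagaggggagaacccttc
Cdc20: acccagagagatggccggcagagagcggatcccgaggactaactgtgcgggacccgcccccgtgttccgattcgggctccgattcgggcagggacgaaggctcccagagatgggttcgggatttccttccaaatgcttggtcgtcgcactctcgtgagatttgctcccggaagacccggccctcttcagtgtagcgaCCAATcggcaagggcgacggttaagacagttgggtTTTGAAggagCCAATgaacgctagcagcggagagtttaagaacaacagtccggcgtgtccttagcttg
Bub3: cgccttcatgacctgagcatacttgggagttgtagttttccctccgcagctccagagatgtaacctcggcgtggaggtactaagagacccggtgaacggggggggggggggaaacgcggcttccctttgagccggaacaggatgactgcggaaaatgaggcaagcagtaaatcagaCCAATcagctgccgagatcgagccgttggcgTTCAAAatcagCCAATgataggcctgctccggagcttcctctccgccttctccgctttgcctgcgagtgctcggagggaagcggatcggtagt
In Kif11 the TTCAAA match began 19 bases before the start, in Ube2c 29, in Top2a 23 and in Bub3 43, while the TTTGAA of Cdc20 began 18 before it. Ube2c and Top2a each held 6 CCAAT matches. Nusap1 held neither motif, as did 7 of the 40 windows (17.5%), against 51.7% of all windows. In conditioned medium the 28 genes with a TTTGAA had a median log2 ratio to the control of 0.84, and the 10 genes without one had a median of 0.75. Yet 8 of the 28 and 4 of the 10 were at least 2-fold higher there. The medians were 0.73 and 0.61 in the live coculture, 0.32 and 0.22 in the irradiated one, and 0.38 and 0.41 for live against irradiated. A variant, TTCGAA, stood in 3 of 40 windows (7.5%), against 1.56% of all windows, and Bub1 held it without a TTTGAA. Whether a motif bears on these ratios was not tested.

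Each array gives 1 signal per probe set, on a linear scale made by the Affymetrix software MAS5. Signals under 44.3, the 50th percentile over all arrays, were raised to that floor before ratios were taken, and 2-fold was the threshold for calling a difference (a log2 ratio of 1 or -1). By this count 45 of the 46 genes exceeded the floor on all 4 arrays. The exception was Cdc25c, whose phosphatase activates cyclin-dependent kinase 1. Its signal was 24.4 in control BMDC, 47.4 with live 1D8 cells, 48.7 with irradiated ones and 45.9 with conditioned medium, too near the floor for a ratio to carry weight. Where 4 signals follow a gene below without names, they stand in that order.

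**Figure D1:**
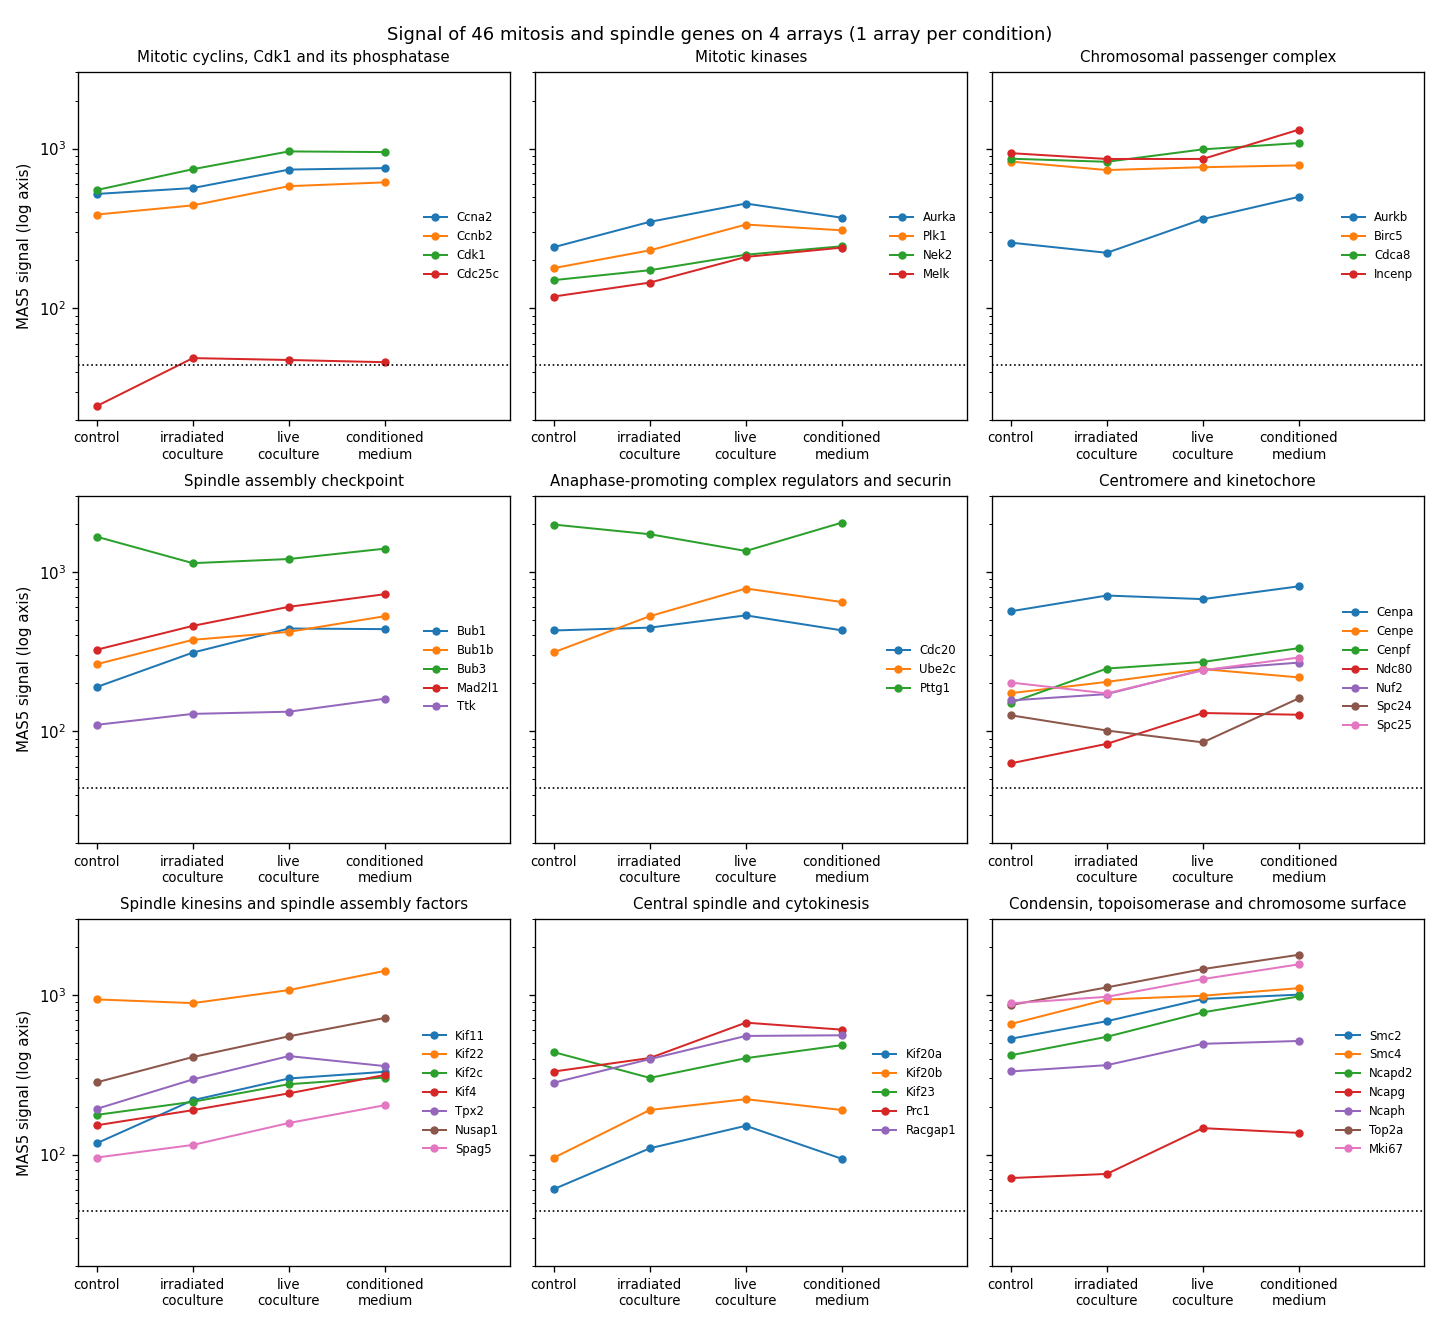
MAS5 signal (log axis) of each of the 46 genes on the 4 arrays, 1 panel per role; each point is 1 array, a line joins the 4 values of a gene, and the dotted line is the floor of 44.3. Most lines are lowest at the control and higher in the live coculture and conditioned medium, while Birc5, Incenp, Bub3, Pttg1, Spc24 and Kif23 are below the control in the live coculture, and Aurkb, Cdca8, Spc25 and Kif22 are lowest in the irradiated coculture.

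Mitosis genes stood furthest above the control in the conditioned medium sample. In it 12 of the 46 genes were at least 2-fold higher than in the control and none was lower, where 2.3% of all 18193 genes were higher and 1.41% lower. Of the 9847 genes above the floor on all arrays, a closer match to genes this bright, 3.5% were higher and 2.01% lower. The median log2 ratio was 0.79 (1.73-fold), beside 0.00 over all genes, and 44 of the 46 ratios were above 0, beside 50.2% of genes above the floor. In the live coculture 9 genes were at least 2-fold higher and none lower, where 3.36% and 2.23% of all genes were, and 4.78% and 3.33% of those above the floor. The median log2 ratio there was 0.65 (1.57-fold), with 40 of 46 above 0, beside 46.4% of genes above the floor. In the irradiated coculture no gene reached 2-fold in either direction, where 3.47% and 2.25% of all genes did and 4.85% and 3.36% of those above the floor, and the median was 0.28 (1.21-fold) with 36 of 46 above 0, beside 46.1%. The 3 comparisons share the control array, so a low reading there enters all of them. That array was the lowest of the 4 for 36 of the 46 genes, beside 31.2% of genes above the floor. Conditioned medium was the highest for 30 of the 46, beside 26.5%.

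These counts depend on scaling. Centring each array on its median moved the median of genes above the floor from -0.043 to -0.17 in the live coculture, from -0.048 to -0.12 beside irradiated cells and from 0.0018 to -0.11 with conditioned medium. After centring 6 members were 2-fold higher in conditioned medium and 5 in the live coculture. Centring multiplies every signal of an array by the same factor, so the distance of the members from those medians could hardly change. It was 0.69 in the live coculture, 0.33 beside irradiated cells and 0.78 with conditioned medium, and says nothing about the choice of scaling.

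**Figure D2:**
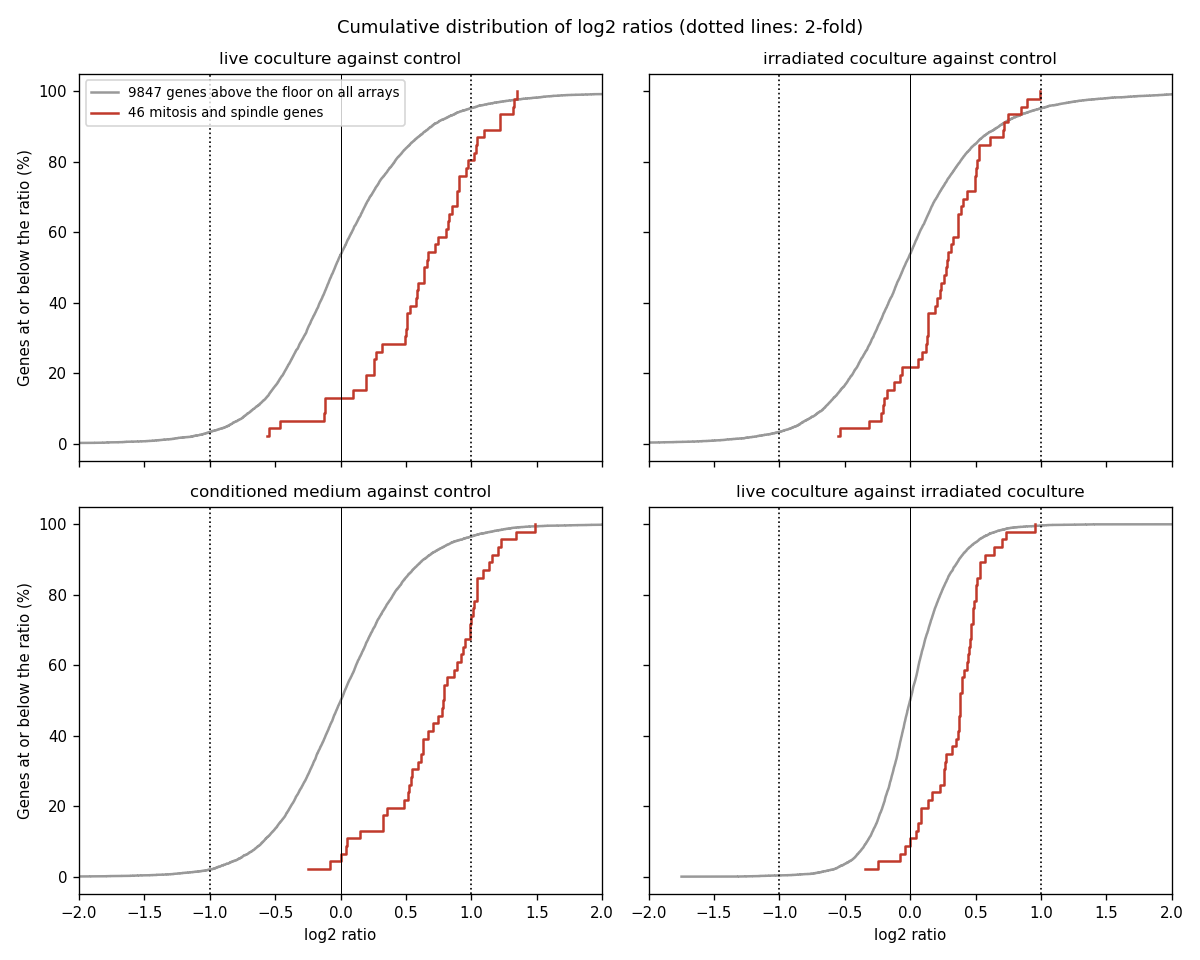
Cumulative share of genes (%) at or below each log2 ratio, for the 46 mitosis and spindle genes (red) and the 9847 genes above the floor on all arrays (grey), in 4 comparisons; dotted lines mark 2-fold. The red curve lies to the right of the grey over most of its length, with medians of 0.65, 0.28 and 0.79 against the control and 0.38 between the cocultures.

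The live and irradiated cocultures differ in whether the tumour cells had been irradiated, and their ratio to each other does not use the control array. No mitosis gene differed 2-fold between them, where 0.368% of all genes were higher in the live coculture and 0.302% lower (0.396% and 0.335% of those above the floor). Yet 42 of the 46 were higher in the live coculture, beside 49.9% of genes above the floor, with a median log2 ratio of 0.38 (1.30-fold). At the brightest probe sets the difference was widest for Ncapg, the condensin subunit, at 146.5 in the live and 75.7 in the irradiated coculture (1.94-fold). Prc1, which bundles the central spindle, was at 670.9 and 402.9 (1.67-fold), and Aurkb at 361.8 and 222.4 (1.63-fold). By the mean over probe sets the order was Aurkb (log2 ratio 0.73), Prc1 (0.71) and Ncapg (0.69). At the brightest probe sets the 4 genes that were higher in the irradiated coculture were Pttg1 (1.27-fold), Spc24 (1.19-fold), Cenpa (1.05-fold) and the dim Cdc25c. By the mean over probe sets their log2 ratios of live to irradiated were -0.0092, -0.25, 0.09 and 0.12, so Cenpa and Cdc25c changed sign. For a single gene, 95% of the genes above the floor lay between log2 ratios of -0.56 and 0.62 in this comparison.

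Entry into mitosis is driven by cyclins and cyclin-dependent kinase 1. Cdk1, the kinase itself, had signals of 550.2 in control BMDC, 959.9 with live 1D8 cells, 742.8 with irradiated ones and 950.5 with conditioned medium. At their brightest probe sets Ccna2 and Ccnb2, cyclins that activate it, were likewise lowest in the control and next lowest in the irradiated coculture. Ccna2 was at 519.8, 738.5, 566.0 and 754.4, and Ccnb2 at 386.3, 581.5, 440.8 and 614.3. None of these reached 2-fold. In the irradiated coculture Cdk1 was 1.35-fold higher than the control, Ccnb2 1.14-fold and Ccna2 1.09-fold.

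At their brightest probe sets the mitotic kinases were higher than the control on every treated array. Aurka, which matures the spindle poles, was at 241.2 in control BMDC, 452.6 with live 1D8 cells (1.88-fold up), 347.7 with irradiated ones and 368.8 with conditioned medium. Plk1, which acts at many steps of mitosis, was at 178.4, 334.3, 230.4 and 307.6 in the same order. Both were highest in the live coculture. Melk, a kinase abundant in dividing cells, was instead highest in conditioned medium, at 239.7 against 118.4 in the control (2.02-fold), with 209.5 and 144.7 in the live and irradiated cocultures. Nek2, which separates centrosomes, was at 150.0, 216.4, 173.0 and 244.4.

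Most checkpoint genes were higher than the control, and 1 was lower throughout. The checkpoint kinase gene Bub1 was at 189.8 in control BMDC, 441.2 with live 1D8 cells (2.32-fold up), 311.8 with irradiated ones and 437.2 with conditioned medium (2.30-fold up). Mad2l1, whose protein blocks CDC20, was at 325.0, 603.1, 458.4 and 723.9, the last 2.23-fold above the control. Bub1b, its partner in that block, reached 527.1 in conditioned medium from 263.8 in the control, just under 2-fold. Ttk, the kinase that starts the checkpoint, differed less, from 110.0 in the control to 160.3 in conditioned medium. Bub3, which docks BUB1 at kinetochores and is also found in cells at rest, was highest in the control at 1657, with 1202 in the live coculture, 1132 beside irradiated cells and 1396 with conditioned medium.

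The anaphase-promoting complex then ends mitosis by marking proteins for destruction. Ube2c, its ubiquitin-conjugating enzyme, was at 313.2 in control BMDC, 785.4 with live 1D8 cells (2.51-fold up), 527.2 with irradiated ones and 646.1 with conditioned medium (2.06-fold up). Cdc20, its activator, was nearly level at 428.8, 533.1, 446.8 and 429.5. Pttg1, the securin that holds sister chromatids together until then, was at 1975 in the control and 2032 in conditioned medium but at 1350 in the live and 1718 in the irradiated coculture. The group thus had 1 member of 3 past 2-fold in the live coculture and the same number in conditioned medium. Over all genes 3.36% and 2.3% were.

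In the chromosomal passenger complex, which corrects faulty attachments, no member reached 2-fold at its brightest probe set. Aurkb, its kinase, came nearest, at 257.5 in control BMDC, 361.8 with live 1D8 cells, 222.4 with irradiated ones and 498.6 with conditioned medium (1.94-fold up). At its other probe set it was at 124.8, 218.2, 128.5 and 284.7, a log2 ratio of 1.19 in conditioned medium. Its partner Birc5 (survivin) was lower than the control on every treated array by small steps, at 828.9 against 764.3, 733.6 and 784.8. With quantile normalization its log2 ratios were 0.00055, -0.085 and 0.032, so that direction held only in the irradiated coculture. Cdca8 (borealin) ranged from 826.4 to 1083 and Incenp, the scaffold, from 860.5 to 1314, both highest in conditioned medium. At these brightest probe sets all 4 had log2 ratios below 0 in the irradiated coculture, the lowest being -0.21 for Aurkb. That direction was not shared by all probe sets of Aurkb (up to 0.04), Cdca8 (up to 0.21) or Incenp (up to 0.99).

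Kinetochore genes were mixed. Ndc80, the microtubule-binding core of the outer kinetochore, was at 63.1 in control BMDC, 130.4 with live 1D8 cells (2.07-fold up), 83.6 with irradiated ones and 127.2 with conditioned medium (2.02-fold up). Nuf2, its direct partner, was at 156.3, 243.0, 171.3 and 269.8. Of the other two subunits of that complex, Spc24 was below the control in both cocultures and Spc25 in the irradiated one. Spc24 was at 126.2, 85.4, 101.3 and 161.3, and Spc25 at 202.4, 241.4, 173.0 and 290.4. Cenpf, a large protein of the outer kinetochore, was at 151.2 in the control and 332.4 with conditioned medium (2.20-fold up), with 272.4 and 247.6 in the live and irradiated cocultures. Cenpa, the histone H3 variant that marks centromeres, ranged from 565.6 in the control to 810.8 in conditioned medium, and the kinesin gene Cenpe from 173.6 in the control to 245.7 in the live coculture.

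Of the spindle motors and assembly factors at their brightest probe sets, 4 of 7 were past 2-fold in conditioned medium, the highest share of any role there, and 2 of 7 in the live coculture. Over all genes 2.3% and 3.36% were. The ranking of roles rests on that choice of probe set. By the mean over probe sets Nusap1 (log2 ratio 0.67) was under 2-fold in conditioned medium. Of the condensin role below, Ncapd2 (1.18), Smc4 (1.38), Ncapg (1.19) and Ncaph (1.06) were then past it and Top2a (0.66) was not. Kif11, the kinesin that pushes the spindle poles apart, was at 117.9 in control BMDC, 299.9 with live 1D8 cells (2.54-fold up), 219.2 with irradiated ones (1.86-fold up) and 330.3 with conditioned medium (2.80-fold up). These were the largest live coculture and conditioned medium ratios of the 46 genes at their brightest probe sets. Nusap1, which binds spindle microtubules near chromosomes, was at 283.7, 550.8, 408.6 and 718.0, the last 2.53-fold above the control. Spag5, which keeps spindle poles intact, was at 95.9, 157.8, 115.0 and 204.0 (2.13-fold in conditioned medium). Kif4, a chromosome-bound kinesin, was at 152.7, 242.0, 189.9 and 315.5 (2.07-fold there). These 3 were highest in conditioned medium. Tpx2, which activates Aurora A on the spindle, was instead highest in the live coculture, with signals of 193.6, 414.3, 295.9 and 358.4 (2.14-fold). Kif2c, which takes microtubules apart at centromeres, ranged from 177.4 to 304.1, and Kif22, which pushes chromosome arms outwards, from 889.2 to 1416.

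Of the central spindle and cytokinesis genes, 3 of 5 were past 2-fold in the live coculture, and none was in conditioned medium. Over all genes 3.36% and 2.3% were. The threshold widens this contrast, as the median log2 ratios of the role were 1.02 and 0.87. In conditioned medium Kif20b (1.99-fold) and Racgap1 (1.98-fold) lay just under 2-fold. Kif20a, a kinesin that carries the passenger complex to the midzone, was at 60.8 in control BMDC, 151.6 with live 1D8 cells (2.49-fold up), 109.6 with irradiated ones and 94.1 with conditioned medium (1.55-fold up). Kif20b, a related kinesin, was at 95.6, 222.5, 190.4 and 190.2 in the same order, and its 1.99-fold ratio in the irradiated coculture was the highest of any member on that array. Prc1 was at 331.5, 670.9, 402.9 and 606.3 (2.02-fold in the live coculture). Racgap1, a subunit of centralspindlin, was just under 2-fold in both the live coculture and conditioned medium, at 282.0, 553.9, 396.6 and 559.1. Its partner Kif23 was at 438.6 in control BMDC, 401.9 with live 1D8 cells, 302.4 with irradiated ones and 485.1 with conditioned medium. At a dimmer probe set Kif23 was at 41.1, 103.7, 42.7 and 86.9, below the floor in the control and irradiated coculture, so its direction in the live coculture differed between probe sets.

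At their brightest probe sets the condensin, topoisomerase and chromosome surface genes were higher than the control on all 3 treated arrays, 7 of 7 on each. Ncapd2, a condensin I subunit, was at 419.0 in control BMDC, 778.6 with live 1D8 cells, 547.0 with irradiated ones and 979.4 with conditioned medium (2.34-fold up). Ncapg was at 71.3, 146.5, 75.7 and 136.8, so at this probe set it was 2.05-fold higher in the live coculture and nearly level in the irradiated one. Its other probe set was at 34.7, under the floor, in the control and at 108.3, 80.5 and 121.0 on the treated arrays, a log2 ratio of 0.86 in the irradiated coculture after flooring. Top2a, the topoisomerase that untangles sister chromatids, was at 865.0, 1453, 1116 and 1786 (2.06-fold in conditioned medium). Mki67, the coat protein of mitotic chromosomes widely used to mark proliferation, was at 886.3, 1258, 973.8 and 1556 and stayed below 2-fold. The core condensin genes Smc2 and Smc4 and the subunit gene Ncaph had fold values of 1.49 to 1.77 in the live coculture and 1.55 to 1.89 in conditioned medium.

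**Figure D3:**
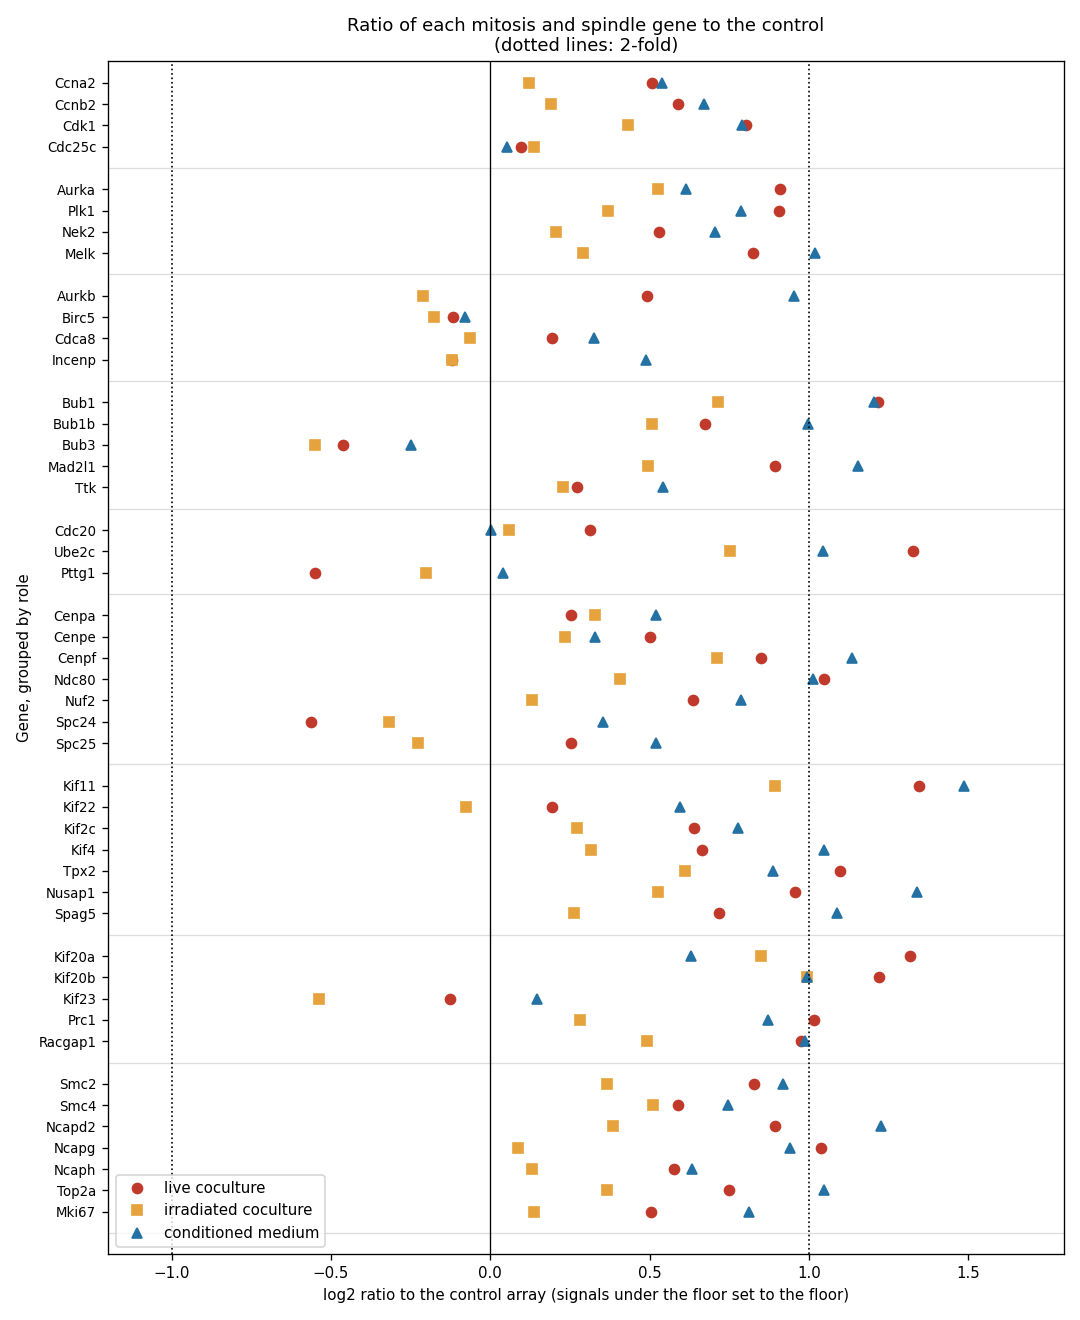
log2 ratio of each of the 46 genes to the control array, in the live coculture (circles), irradiated coculture (squares) and conditioned medium (triangles), grouped by role; dotted lines mark 2-fold. No square passes the right dotted line, and 9 circles and 12 triangles do.

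Other probe sets of the same genes give a check within the arrays, though not one on the cultures. Of the 46 genes, 33 had several probe sets, and 21 had more than 1 above the floor on all arrays. Among those that cleared the floor on every array, a gene's signs were all the same for 19 of these 21 in conditioned medium, for 16 in the live coculture and for 9 in the irradiated coculture. The 32 further probe sets of these genes had median log2 ratios of 0.69 in conditioned medium, 0.64 in the live coculture and 0.19 in the irradiated coculture. Kif11 at 1 of 2 other probe sets, and Smc4 at both, differed more from the control than at the brightest. For Kif11 that probe set had signals of 50.5 in control BMDC, 283.1 with live 1D8 cells, 164.2 with irradiated ones and 294.1 with conditioned medium, a log2 ratio of 2.54 in the last. For Smc4 a dimmer one had 72.9, 322.3, 246.0 and 359.1, against 658.0, 989.2, 936.4 and 1103 at the brightest. In the irradiated coculture the mean over probe sets brought Kif11 (log2 ratio 1.04) and Smc4 (1.10) past 2-fold. Top2a disagreed in sign: a dimmer probe set had 101.5, 71.7, 74.4 and 195.0, lower than the control in both cocultures. By the same mean Smc4 also passed 2-fold in the live coculture (1.37) and in conditioned medium (1.38), as did Aurkb (1.07), Ncapg (1.19) and Ncaph (1.06) in conditioned medium. Tpx2 (0.61) and Prc1 (0.81) were then under 2-fold in the live coculture. For Bub1, Nusap1 and Kif20b every other probe set was below the floor on all 4 arrays and so has a ratio of 0, which lowers their means by construction and says nothing of the brightest probe set. Cenpf and Top2a, under 2-fold by this mean in conditioned medium (0.60 and 0.66), each also had 1 such probe set. One of 4 probe sets of Tpx2 was below the control in conditioned medium, with a log2 ratio of -0.16.

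Some exceptions were read at probe sets whose names end in _s_at or _x_at, which by Affymetrix's naming share probes with other transcripts or may cross-hybridise. Bub3, Pttg1, Incenp, Cdc20, Cdca8 and Kif22 are among them. Of the 45 genes above the floor on all arrays, 12 were read at such probe sets. Their median log2 ratio was 0.40 in the live coculture, -0.0023 beside irradiated cells and 0.61 with conditioned medium, while the other 33 had medians of 0.82, 0.37 and 0.89. Over all genes the probe sets of the first kind also had lower medians in the live coculture (-0.13 against 0.04). The brightest of Incenp, of the _x_at kind, was at 936.0 in the control and 861.1 in the live coculture. Others that cleared the floor were at 377.6 and 450.1 (log2 ratio 0.25), 77.7 and 200.5 (1.37), and 68 and 83.8 (0.30). Read without _s_at and _x_at probe sets, Bub3, Cdc20, Pttg1 and Cdca8 had log2 ratios of 0.01, 0.14, -0.14 and 0.40 in the live coculture. Beside irradiated cells these were -0.26, -0.02, 0.07 and -0.04. Whether cross-hybridisation sets these values was not tested. Prc1 and Spag5 were also read at this kind, and without it their log2 ratios were 0.61 in the live coculture and 0.89 in conditioned medium. Leaving this kind out also brought Kif22 past 2-fold in the live coculture (1.11) and in conditioned medium (1.36), and Ncaph in conditioned medium (1.48), so that 9 and 13 members were called. Birc5, Kif23 and Spc24 were read at probe sets of other kinds.

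**Figure D4:**
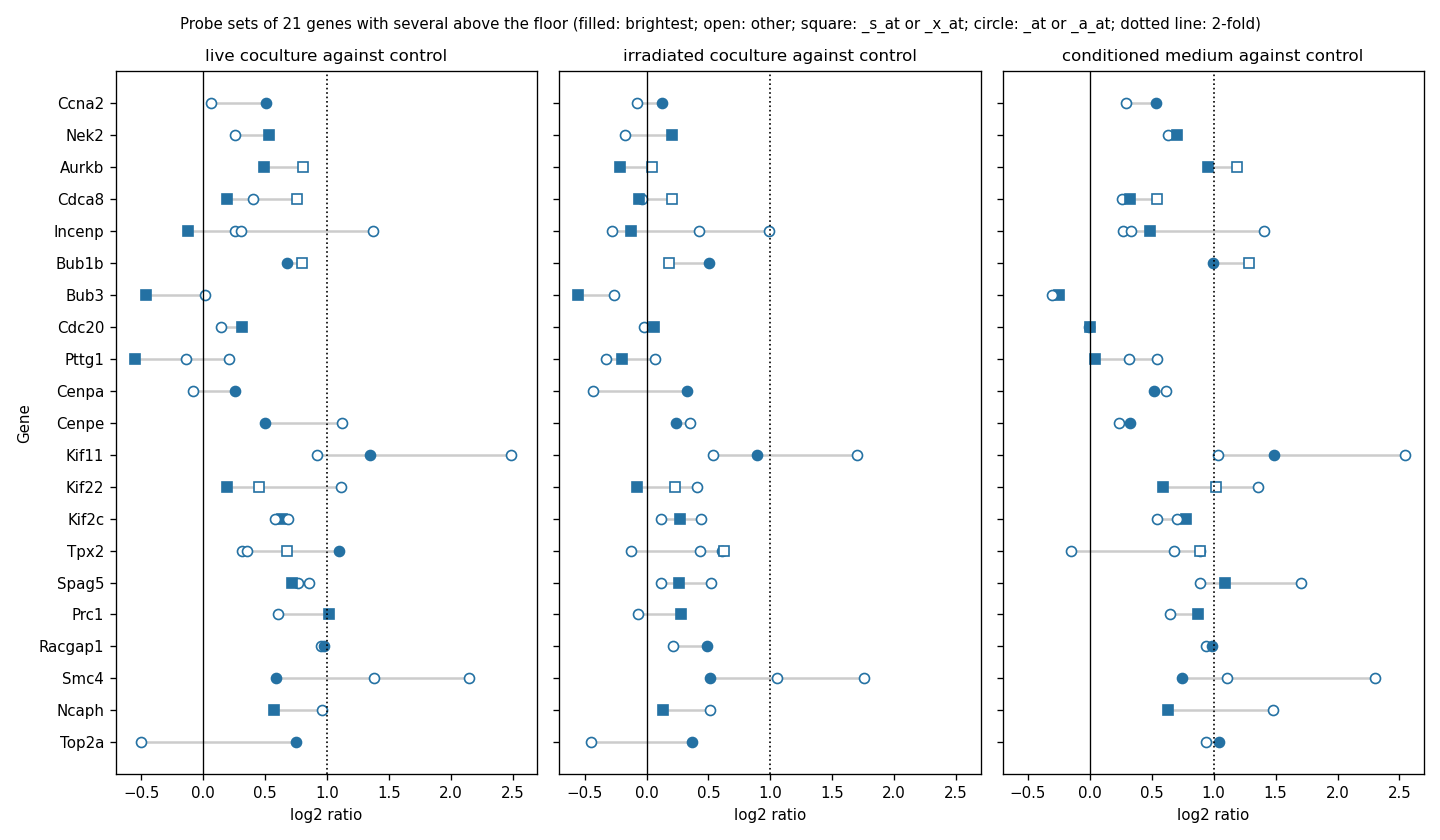
log2 ratio to the control of every probe set above the floor on all arrays, for the 21 genes with more than 1 (filled: brightest, open: other; squares: _s_at or _x_at, circles: _at or _a_at; dotted line: 2-fold). Kif11, Smc4, Incenp and Tpx2 spread over more than 1 log2 unit in conditioned medium, and most points lie to the right of 0 there.

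Mitosis genes outside the 46 gave like values. Of 81 further ones listed, 76 were measured, and 26 were at least 2-fold higher in conditioned medium, 12 in the live coculture and 1 beside irradiated cells, with none lower. Over all genes 2.3%, 3.36% and 3.47% were higher in that order, and 1.41%, 2.23% and 2.25% lower. The median log2 ratios of the 76 were 0.77, 0.54 and 0.23. The 1 in the irradiated coculture was Anln, the anillin of the cleavage furrow, at 201.2 in control BMDC, 630.3 with live 1D8 cells, 483.3 with irradiated ones and 661.8 with conditioned medium. Pkmyt1, an inhibitory kinase of cyclin-dependent kinase 1, was 3.00-fold higher in conditioned medium and Kntc1, a kinetochore protein, 3.06-fold.

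DNA replication genes, which act before mitosis, were higher by 2-fold in 12 of 42 cases in conditioned medium, 5 in the live coculture and 2 beside irradiated cells, and none was lower. Their medians were 0.70, 0.56 and 0.03. Beside this list and the next ones, 2.3%, 3.36% and 3.47% of all genes were higher in that order, and 1.41%, 2.23% and 2.25% lower. Tk1, thymidine kinase, was at 180.1, 554.5, 333.4 and 694.0 from control to conditioned medium in the order used above. Of 23 genes for cell cycle transcription factors none was 2-fold higher in either coculture and 1 was in conditioned medium, Rbl1, a repressor of E2F targets (2.10-fold). Foxm1 and Mybl2, the activators described above, fall outside the naming rule and were singled out for that role after their values were seen. Foxm1 was at 227.7, 297.5, 258.8 and 288.5, and Mybl2 at 72.4, 104.4, 60.5 and 97.5, all within 2-fold of the control. E2f5, a repressive family member, was the 1 gene of the list that was at least 2-fold lower on each treated array. It was 3.14-fold lower in the live coculture, 3.52-fold beside irradiated cells and 3.29-fold with conditioned medium. Its mean over probe sets had log2 ratios of 0.0068, -0.12 and -0.12, so the lower call did not hold under it. Among 19 inhibitors and G1 regulators, 3 were at least 2-fold higher on each treated array, though not the same 3, and 1 was lower, in the irradiated coculture. Only Ccnd2, a cyclin of the step into S phase, was 2-fold higher on all 3 treated arrays. Its signal was 185.1 in control BMDC, 1550 with live 1D8 cells, 1396 with irradiated ones and 470.0 with conditioned medium.

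Markers of epithelium were highest in the cocultures. Of 22 epithelial and mesothelial markers, 8 were at least 2-fold higher in the live coculture, 8 beside irradiated cells and none with conditioned medium. Over all genes 3.36%, 3.47% and 2.3% were. The number of the 22 above the floor was 5 in the control, 15 in each coculture and 5 with conditioned medium. Their summed signal was 711.6 in control BMDC, 3464 with live 1D8 cells, 4099 with irradiated ones and 1042 with conditioned medium. Krt19, a keratin of simple epithelia, was at 8.6 and 22.2 in the control and conditioned medium, both under the floor, and at 569.7 and 767.4 in the live and irradiated cocultures. Cdh1, the gene of E-cadherin, was named after its values were seen, and it was at 189.5, 930.5, 1102 and 338.0. The summed epithelial signal and the median of the mitosis genes were both above the control on all 3 treated arrays. The first adds raw signals, those under the floor included. The second is a median of floored log2 ratios, so their sizes and orders over 3 single arrays are not like measures. The mitosis median was 0.79 in conditioned medium, 0.65 in the live coculture and 0.28 in the irradiated one. The part of the epithelial signal in the mitosis values was not tested. Of 27 matrix and mesenchymal markers, 7, 8 and none were higher in the live coculture, irradiated coculture and conditioned medium, and their summed signals were 8212 in the control, 17493 and 19897 in the live and irradiated cocultures and 13464 in conditioned medium.

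Markers of blood lineages also differed. Of 18 neutrophil and myeloid progenitor markers, 7 were at least 2-fold lower in the live coculture, 5 beside irradiated cells and 5 with conditioned medium, and 1, 1 and none were higher. Over all genes 2.23%, 2.25% and 1.41% were lower, and 3.36%, 3.47% and 2.3% higher. The summed signal of the 18 markers was 8652 in the control, 4355 and 5169 in the live and irradiated cocultures and 8627 in conditioned medium. Most of it came from 1 gene, Mmp8, singled out after its values were seen (5677, 2635, 3102 and 6902), and without it the sums were 2975, 1720, 2068 and 1725. The protease gene Mmp9 was the higher one, at 44.0, 280.4, 288.5 and 35.7. The neutrophil calgranulin gene S100a9 was at 214.3 in the control and below the floor everywhere else (17.8, 21.4 and 32.5). Of 10 mast cell and basophil markers 2, 2 and none were lower, with summed signals of 1387, 294.2, 366.2 and 932.4. Dendritic cell and macrophage markers were present throughout, with 19 or 20 of 20 above the floor on each array. Of these 3, 4 and 2 were higher in the live coculture, irradiated coculture and conditioned medium, and 2, 1 and none lower. Cd80, the sorted marker, was among the higher ones, at 85.5, 378.2, 325.8 and 201.3. The part of these shifts in the mitotic signals was not tested.

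**Figure D5:**
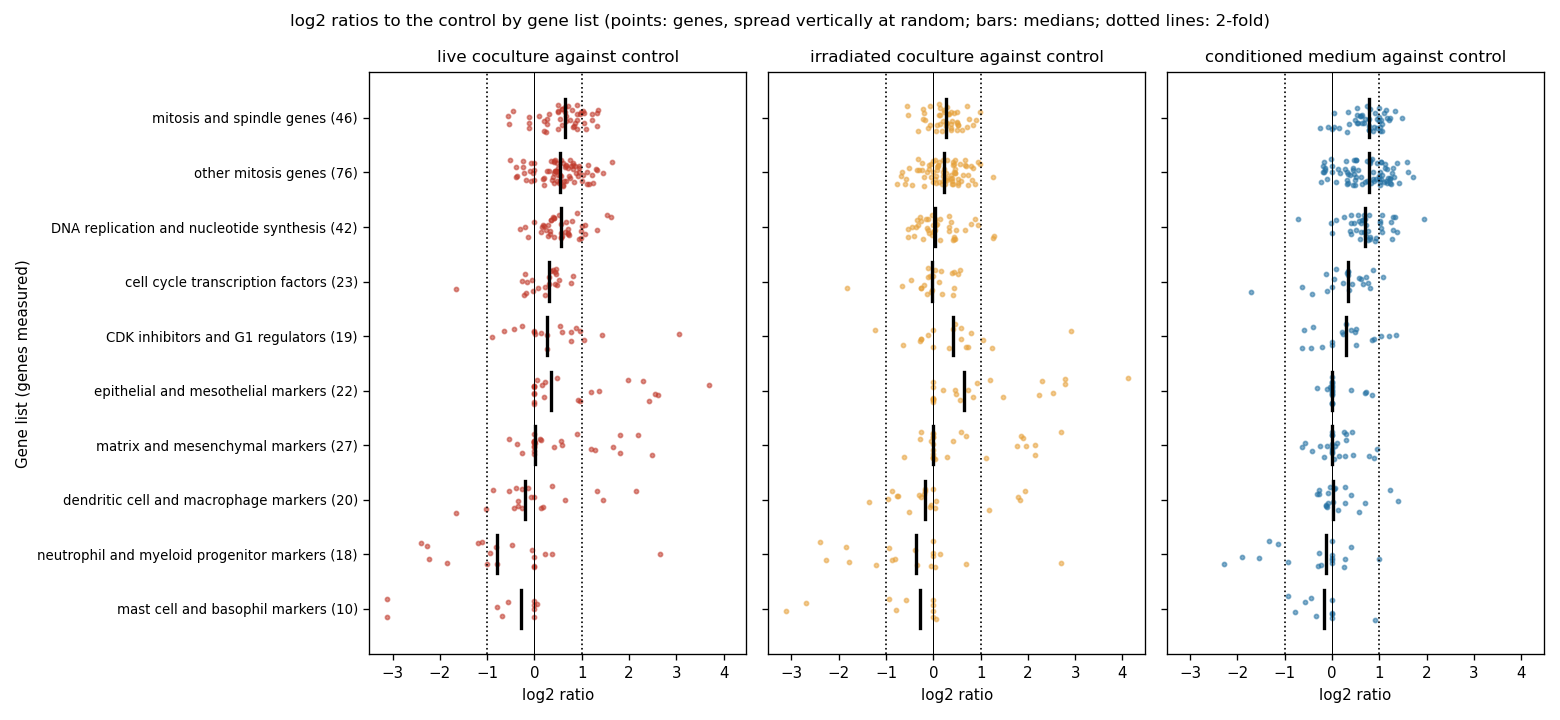
log2 ratio to the control of every measured gene in 10 lists, on the 3 treated arrays (points: genes, bars: list medians, dotted lines: 2-fold). The medians of the 2 mitosis lists sit right of 0 on all 3 arrays and furthest in conditioned medium, where no epithelial or matrix marker passes 2-fold.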

How the data were processed

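RNA of 4 samples was hybridised to 1 array each after 1 round of amplification, per the labels' protocols. The deposited values are linear signal intensity made by the authors with MAS5 in GCOS 1.4, per the submitters' processing notes, and the scaling target is not given in the sources used here. Trimmed mean signals lay between 149.4 and 149.5 on the 4 arrays, and medians between 38.7 and 46.8. Of 45101 probe sets, 64 controls were left out. By the platform annotation, which can be old, 34945 probe sets had 1 gene, 932 several and 9160 none. A gene was read at its brightest probe set. Signals were raised to a floor of 44.3 (50th percentile), and 2-fold was the threshold. The floor and ratio steps were tested on simulated data. With 1 array per condition no test was run, and precision is limited by how few arrays there are. The members and lists were chosen with earlier results of these data known. The motifs and the windows printed were chosen after the values were seen. Every member may be named, up to 4 genes of each context list and 3 of each marker list by size of ratio. Alternatives were 2 other floors, 2 normalizations, the mean over probe sets, a 3-fold threshold and, added after seeing the data, leaving out _s_at and _x_at probe sets.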

Additional observations from a re-analysis of the deposited data

How the results depend on the processing

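With 1 array per condition, every ratio rests on a pair of arrays and no spread between cultures is known. The members' median log2 ratios stayed above 0 in all 4 comparisons under every alternative that gives a median, and no member was 2-fold lower under any. Counts moved more. In the live coculture 9 members were 2-fold higher, against 4 with the floor at the 75th percentile (155.6), 5 with median centring, 6 with the mean over probe sets and 0 at 3-fold. In conditioned medium 12 were, against 6 with median centring, 8 with quantile normalization and 0 at 3-fold. In the irradiated coculture none was, against 2 with the mean over probe sets. E2f5 changed sign in the live coculture with the mean over probe sets (log2 ratio 0.0068). A mean over probe sets counts those under the floor on all arrays as ratios of 0, so it lowers some ratios by construction. Other causes were not tested. No paired analysis was possible because each condition has 1 array.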
